A study of Homo sapiens with 36 samples.

Results

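The FOS and JUN families were followed through 18 h of copper exposure in BEAS-2B and HCT116 cells. The members are the 7 genes FOS, FOSB, FOSL1, FOSL2, JUN, JUNB and JUND, chosen by name from the array annotation. Each was measured by 1 probe, and all 7 were among the 14678 genes tested. In GRCh38.p14 FOS lies at chr14:75278828-75282230, FOSB at chr19:45467996-45475179, FOSL1 at chr11:65892049-65900545 and FOSL2 at chr2:28392858-28417317. JUN lies at chr1:58780791-58784047, JUNB at chr19:12791486-12793315 and JUND at chr19:18279694-18281622. BEAS-2B is a line of bronchial epithelium immortalised with viral genes, and HCT116 is a colorectal carcinoma line. RNA was hybridised to 36 Illumina bead arrays, 18 from each line. BEAS-2B cells received CuSO4 at 800 µM and HCT116 cells at 1400 µM, so line and dose cannot be told apart. In each line 2 copper arrays were run at 2, 4, 6, 12 and 18 h, beside 2 untreated arrays at 0 h, 2 at 6 h and 1 at 2, 4, 12 and 18 h. The labels give DMEM as the medium and name neither passage nor clone. They do not say whether replicates were separate cultures, so the p-values measure only the spread between these arrays, which may be technical.

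FOS and JUN proteins are basic leucine zipper transcription factors. They pair through their zippers to form AP-1, which binds short palindromic DNA elements. JUN proteins can pair with themselves or with a FOS protein, whereas FOS proteins need a partner from another family. FOS, FOSB, JUN and JUNB are known as immediate early genes, induced by growth factors and stress and usually switched off again soon afterwards. FOSL1 and FOSL2 are commonly induced later, and JUND is present at a steady level in many cells.

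The stretch before the transcription start is shown for the 4 genes that moved most and for JUND, which was smaller late than early. RefSeq held a promoter entry for 6 of the 7 genes. FOSL1 had none in the table used. Each line below is 250 bases ending just before the start, 5′ to 3′ on the gene's strand, in GRCh38.p14. The regions are chr14:75278578-75278827 on the plus strand for FOS, chr19:45467746-45467995 on the plus strand for FOSB, chr1:58784048-58784297 on the minus strand for JUN, chr19:12791236-12791485 on the plus strand for JUNB and chr19:18281623-18281872 on the minus strand for JUND. Capitals mark matches on either strand to the motifs named after the sequences.
FOS: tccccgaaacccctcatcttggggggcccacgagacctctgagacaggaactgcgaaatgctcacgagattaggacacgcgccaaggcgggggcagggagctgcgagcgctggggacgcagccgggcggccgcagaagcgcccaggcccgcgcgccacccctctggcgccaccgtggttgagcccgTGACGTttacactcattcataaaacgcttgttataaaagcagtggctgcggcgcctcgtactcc
FOSB: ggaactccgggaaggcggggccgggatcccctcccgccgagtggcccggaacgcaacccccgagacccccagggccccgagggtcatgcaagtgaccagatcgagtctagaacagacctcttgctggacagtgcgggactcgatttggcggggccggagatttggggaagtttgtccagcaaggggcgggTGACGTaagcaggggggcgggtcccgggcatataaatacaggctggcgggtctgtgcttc
JUN: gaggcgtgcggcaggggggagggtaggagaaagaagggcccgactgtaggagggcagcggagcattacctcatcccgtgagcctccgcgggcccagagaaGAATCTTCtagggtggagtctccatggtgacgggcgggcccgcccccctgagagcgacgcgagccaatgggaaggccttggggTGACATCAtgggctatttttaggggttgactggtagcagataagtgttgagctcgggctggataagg
JUNB: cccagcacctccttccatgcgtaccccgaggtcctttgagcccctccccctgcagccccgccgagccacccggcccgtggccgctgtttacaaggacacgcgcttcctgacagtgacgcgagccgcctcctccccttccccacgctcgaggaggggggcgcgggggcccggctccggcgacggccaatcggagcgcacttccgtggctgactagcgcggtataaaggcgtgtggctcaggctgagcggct
JUND: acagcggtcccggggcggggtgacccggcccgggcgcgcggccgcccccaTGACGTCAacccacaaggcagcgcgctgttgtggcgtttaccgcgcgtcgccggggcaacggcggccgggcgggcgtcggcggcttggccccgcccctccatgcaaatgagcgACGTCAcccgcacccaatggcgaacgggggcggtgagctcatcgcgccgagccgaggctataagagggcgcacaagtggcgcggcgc
The motifs searched on both strands were the AP-1 element TGACTCA, the JUN-type element TGACATCA, the full cyclic AMP response element TGACGTCA with its core TGACGT, the heat shock pair GAANNTTC and the CArG box bound by SRF. Every full cyclic AMP response element also holds the core. FOS held 1 core from 64 to 59 bases before the start, and FOSB held 1 from 60 to 55 bases before it. The core was in 7.1% of all 35116 RefSeq promoters of this length. JUN held the JUN-type element from 67 to 60 bases before the start, which 2.37% of promoters held, and 1 heat shock pair, which 5.78% held. JUND held 1 full element from 200 to 193 bases before the start, which 1.65% of promoters held, and a further core from 87 to 82 bases before it. JUNB held none of the motifs in this window. None of the 6 promoters held TGACTCA or the CArG box within their 250 bases. Over all promoters of this length the shares were 4.2% and 1.16%. Bases further upstream were not searched, so sites there would not be seen. FOSL2 held 1 core, from 66 to 61 bases before its start. These matches are letters in a window and are not measured binding sites.

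Copper raised RNA of the whole family in both lines when the 5 times were averaged, but by very different amounts. FOS and FOSB rose most, JUNB rose 14.2-fold in BEAS-2B and 4.73-fold in HCT116, and JUN rose 2.78-fold and 19.6-fold. The JUNB probe was detected on 4 of 6 matched untreated BEAS-2B arrays. With the authors' processed values its log2 average was 2.38 in place of 3.83 in BEAS-2B, and 1.70 in place of 2.24 in HCT116. FOSL1 rose 2.54-fold and 1.15-fold, and FOSL2 and JUND rose by at most 1.51-fold in either line. A rise or fall here has an adjusted p below 0.05 in limma's moderated test, with Benjamini-Hochberg adjustment across the 14678 genes. All 7 genes rose in each line on average, where 18.5% of all genes rose in BEAS-2B and 17.3% in HCT116. Over all genes 30.3% fell in BEAS-2B and 29.1% in HCT116. On the log2 scale the median of the 7 averages was 1.48 for BEAS-2B, and for HCT116 it was 2.24, beside -0.04 over all genes in each line. Each array holds bulk RNA of a single cultured line, so a change in every cell and a change in some cells cannot be told apart.

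The average rise in FOSL1 in HCT116 was 0.20 ± 0.06 (SE of the log2 difference, adjusted p = 0.01) and was not called without the 12 h arrays (0.16, adjusted p = 0.069) or without the 18 h arrays (0.07, adjusted p = 0.48). The average rise of JUND was 0.49 ± 0.06 in BEAS-2B and 0.34 ± 0.06 in HCT116. FOSL2 rose by 0.55 ± 0.13 and 0.60 ± 0.13. Against the untreated 0 h arrays in place of the matched times, the BEAS-2B averages of JUND (0.20, adjusted p = 0.095) and FOSL2 (0.46, adjusted p = 0.062) and the HCT116 average of FOSL1 (0.10, adjusted p = 0.43) were not called.

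**Figure D1:**
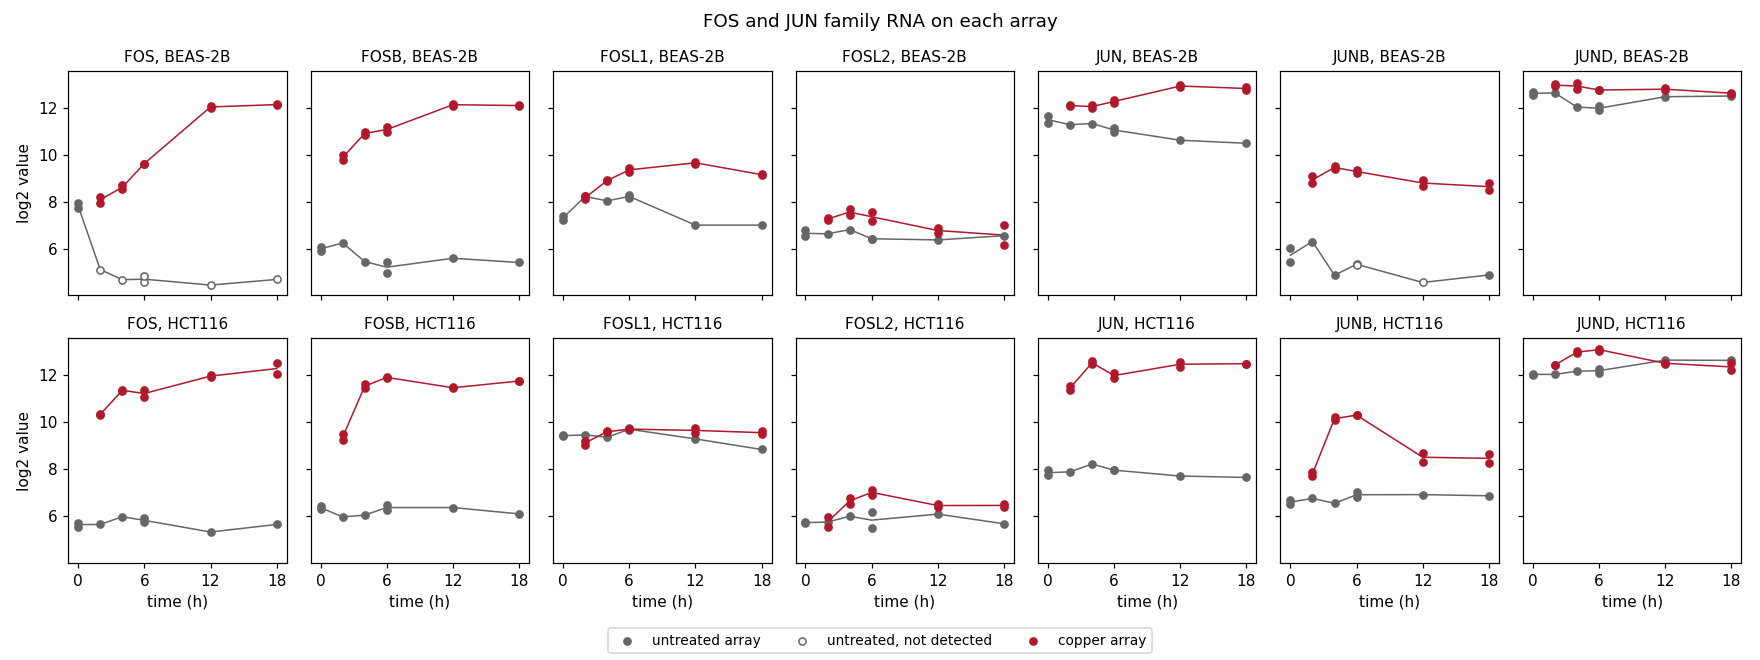
Log2 value after background correction (vertical axis) on every array against time in h (horizontal axis), for each gene and line. Points are arrays, lines join the means at each time, grey is untreated, red is copper, and open points mark arrays where the probe was not detected. FOS, FOSB, JUN and JUNB copper arrays lie above every untreated array of the same line, as for 4.42% of all genes in BEAS-2B and 2.16% in HCT116.

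FOS, the founding member of its family, was the gene whose untreated level moved most. In untreated BEAS-2B its log2 values were 7.73 and 7.93 at 0 h, 5.12 at 2 h, 4.69 at 4 h, 4.57 and 4.85 at 6 h, 4.46 at 12 h and 4.70 at 18 h. The probe was detected at 0 h and on none of the 6 later untreated arrays. The copper arrays read 8.22 and 7.96 at 2 h, 8.53 and 8.71 at 4 h, 9.63 and 9.63 at 6 h, 12.09 and 11.98 at 12 h, and 12.14 and 12.13 at 18 h. All 10 copper arrays were above all 8 untreated ones, although the lowest of them, 7.96, was close to the highest untreated value, 7.93, which was at 0 h. Because the matched untreated arrays did not detect FOS, its fold change in BEAS-2B is a lower bound, taken against each untreated array's lowest detected signal or the probe's own signal if that was higher. FOS was at least 7.84-fold higher at 2 h (adjusted p = 9.6e-09) and at least 15.3-fold higher at 4 h. It was at least 29.4-fold higher at 6 h, at least 169-fold at 12 h and at least 173-fold at 18 h (adjusted p = 6.1e-15). Set against the 0 h arrays instead, FOS at 2 h differed by 0.26 on the log2 scale (adjusted p = 0.39), so the rise at 2 h rests on the low untreated array of that time. The other times were also smaller against 0 h, at 0.79 at 4 h, 1.80 at 6 h, 4.21 at 12 h and 4.31 at 18 h (adjusted p = 0.00083 at 4 h), and the average was 2.27.

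In HCT116 untreated FOS stayed low, at 5.57 and 5.74 at 0 h, 5.66 at 2 h, 5.99 at 4 h, 5.92 and 5.75 at 6 h, 5.34 at 12 h and 5.66 at 18 h. With copper it read 10.37 and 10.31 at 2 h, 11.33 and 11.40 at 4 h, 11.10 and 11.36 at 6 h, 11.94 and 12.00 at 12 h, and 12.53 and 12.05 at 18 h. The groups did not overlap, and the difference was already large at 2 h. It was 25.7-fold at 2 h (log2 4.68 ± 0.19, adjusted p = 3.6e-11), 41.4-fold at 4 h and 42.0-fold at 6 h. At 12 and 18 h it was 99.1-fold and 99.0-fold.

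FOSB, a close relative of FOS that also carries a transactivation domain, rose early by amounts whose difference between the lines was -0.10 (interval -0.48 to 0.28, adjusted p = 0.93). Untreated BEAS-2B arrays ranged from 4.98 to 6.25 with a median of 5.53, and untreated HCT116 arrays from 5.98 to 6.50 with a median of 6.28. Copper arrays of BEAS-2B read 9.99 and 9.78 at 2 h, 10.99 and 10.83 at 4 h, 10.97 and 11.18 at 6 h, 12.17 and 12.09 at 12 h, and 12.13 and 12.06 at 18 h. Those of HCT116 read 9.26 and 9.50, 11.46 and 11.62, 11.95 and 11.88, 11.45 and 11.50, and 11.77 and 11.75 at the same times. No copper array overlapped the untreated arrays of its line. In BEAS-2B the difference grew from 12.4-fold at 2 h (log2 3.63 ± 0.18, adjusted p = 7e-10) to 102-fold at 18 h (6.67 ± 0.18, adjusted p = 1.3e-14). In HCT116 it was 10.6-fold at 2 h, 44.7-fold at 4 h and 50.3-fold at 18 h (5.65 ± 0.18, adjusted p = 1.7e-13).

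FOSL1, a FOS relative that lacks the transactivation domain of FOS and is often abundant in migrating epithelial tumour cells, rose more in BEAS-2B, and there more late than early. Untreated BEAS-2B read 7.41 and 7.22 at 0 h, 8.23 at 2 h, 8.04 at 4 h, 8.28 and 8.18 at 6 h, 7.01 at 12 h and 7.01 at 18 h. Copper arrays read 8.25 and 8.10 at 2 h, 8.93 and 8.88 at 4 h, 9.45 and 9.27 at 6 h, 9.62 and 9.70 at 12 h, and 9.19 and 9.12 at 18 h. The 2 h copper arrays lay among the untreated ones, and the other 8 lay above them. The difference was -0.06 ± 0.14 at 2 h (adjusted p = 0.94), 1.82-fold at 4 h (adjusted p = 0.00026), 6.26-fold at 12 h (log2 2.65 ± 0.14, adjusted p = 6.3e-11) and 4.41-fold at 18 h. Untreated FOSL1 was higher at 2 to 6 h than at 0 h, and against the 0 h arrays the 2 h difference was 0.86 and was called (adjusted p = 5.6e-05). The early value was then 1.23 in place of 0.40. In HCT116 the groups overlapped, with untreated arrays at 8.85 to 9.76 and copper arrays at 9.04 to 9.77. Its difference there was called at 12 h (0.36 ± 0.14, adjusted p = 0.049) and at 18 h (0.71 ± 0.14, adjusted p = 0.00034). The 18 h value was measured against an untreated array at 8.85, the lowest of the 8, and against the 0 h arrays it was 0.13 (adjusted p = 0.38). The 12 h call was lost without the copper array of replicate 2 (0.25, adjusted p = 0.24).

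FOSL2, the other such relative, was called at few times. Its values in BEAS-2B ran from 6.38 to 6.82 untreated and from 6.17 to 7.69 with copper, and in HCT116 from 5.52 to 6.17 and from 5.55 to 7.14. The groups overlapped in both lines, with 8 of 10 copper arrays above all untreated ones in each. The difference was called at 6 h in BEAS-2B (0.93 ± 0.24, adjusted p = 0.0055) and at 6 h in HCT116 (1.18 ± 0.24, adjusted p = 0.00085). It was also called at 18 h in HCT116 (0.78 ± 0.29, adjusted p = 0.039). Against the 0 h arrays FOSL2 was further called at 4 h in BEAS-2B (0.91, adjusted p = 0.0093). The same reference gave calls in HCT116 at 4 h (0.92, adjusted p = 0.012) and 12 h (0.72, adjusted p = 0.021). With the authors' processed values BEAS-2B was called at 4 h (0.48, adjusted p = 0.028), and HCT116 was not at 18 h (0.36, adjusted p = 0.059). The BEAS-2B call at 6 h was lost without the copper array of replicate 2 (0.75, adjusted p = 0.079), and the HCT116 call at 18 h was lost without either copper array of that time (0.74, adjusted p = 0.1, and 0.83, adjusted p = 0.068).

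JUN, the partner through which FOS proteins most often bind DNA, differed most between the lines. Untreated BEAS-2B read 11.63 and 11.36 at 0 h, 11.28 at 2 h, 11.33 at 4 h, 11.15 and 10.96 at 6 h, 10.62 at 12 h and 10.49 at 18 h. Its copper arrays read 12.08 and 12.11 at 2 h, 12.11 and 11.99 at 4 h, 12.19 and 12.35 at 6 h, 12.87 and 12.98 at 12 h, and 12.74 and 12.90 at 18 h. The groups did not overlap, and they moved apart with time. The difference was 1.76-fold at 2 h (adjusted p = 0.007), 2.32-fold at 6 h and 5.03-fold at 18 h (log2 2.33 ± 0.16, adjusted p = 1.9e-09). Untreated JUN fell over the same time, and against the 0 h arrays the 18 h difference was 1.33 (adjusted p = 9.6e-08). Untreated HCT116 arrays ranged from 7.66 to 8.23 with a median of 7.93. With copper they read 11.37 and 11.55 at 2 h, 12.47 and 12.60 at 4 h, 11.89 and 12.10 at 6 h, 12.37 and 12.58 at 12 h, and 12.50 and 12.50 at 18 h. Here every copper array lay far above every untreated one. The difference was 11.8-fold at 2 h (3.56 ± 0.16, adjusted p = 1.2e-10), 19.7-fold at 4 h and 28.7-fold at 18 h.

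JUNB, which can oppose JUN at some genes, rose in both lines and in BEAS-2B held its rise against matched untreated arrays. Untreated BEAS-2B arrays read 6.03 and 5.43 at 0 h, 6.31 at 2 h, 4.88 at 4 h, 5.32 and 5.37 at 6 h, 4.57 at 12 h and 4.89 at 18 h. The probe was not detected on 1 of the 6 h arrays or on the 12 h array. Copper arrays read 9.08 and 8.79 at 2 h, 9.41 and 9.51 at 4 h, 9.23 and 9.35 at 6 h, 8.68 and 8.92 at 12 h, and 8.80 and 8.49 at 18 h. None overlapped the untreated arrays, and copper values stayed within 8.49 to 9.51. The difference was 6.15-fold at 2 h (log2 2.62 ± 0.23, adjusted p = 1.1e-06), 23.9-fold at 4 h, at least 18-fold at 12 h and 13.5-fold at 18 h.

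In HCT116 JUNB came up and largely went down again. Untreated arrays ranged from 6.54 to 7.04, with a median of 6.79. Copper arrays read 7.71 and 7.91 at 2 h, 10.09 and 10.23 at 4 h, 10.31 and 10.31 at 6 h, 8.33 and 8.71 at 12 h, and 8.66 and 8.28 at 18 h. The arrays at 4 and 6 h were the highest, and those at 12 and 18 h still lay above every untreated array. The difference was 2.07-fold at 2 h (adjusted p = 0.039), 12.2-fold at 4 h (3.60 ± 0.23, adjusted p = 5.2e-09), 10.4-fold at 6 h, 3.01-fold at 12 h and 3.00-fold at 18 h (adjusted p = 2.1e-05). The 2 h call was lost without either copper array of that time (1.15, adjusted p = 0.079, and 0.95, adjusted p = 0.22).

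JUND, which is often described as restraining growth, was higher with copper at 4 and 6 h and was not called at 12 or 18 h. In BEAS-2B untreated arrays ran from 11.90 to 12.67 and copper arrays from 12.60 to 13.05, and in HCT116 from 12.01 to 12.65 and from 12.21 to 13.14. The groups overlapped in both lines. The difference in BEAS-2B was 1.86-fold at 4 h (0.89 ± 0.14, adjusted p = 0.00025), 1.72-fold at 6 h, and 0.12 ± 0.14 at 18 h (adjusted p = 0.55). In HCT116 it was 1.74-fold at 4 h and 1.86-fold at 6 h (0.89 ± 0.12, adjusted p = 8.1e-06). It was -0.28 ± 0.14 at 18 h there (adjusted p = 0.13). Untreated BEAS-2B read 12.56 and 12.67 at 0 h, 12.63 at 2 h, 12.03 at 4 h, and 11.90 and 12.06 at 6 h, a difference of 2 to 6 h from 0 h that was not called (-0.40, adjusted p = 0.069). Against the 0 h arrays the BEAS-2B rises at 4 h (0.31, adjusted p = 0.06) and 6 h (0.14, adjusted p = 0.43) were not called. In HCT116 untreated JUND was higher at 12 and 18 h, and against the 0 h arrays JUND with copper was called higher at 12 h (0.47, adjusted p = 0.0028) and at 18 h (0.32, adjusted p = 0.031).

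**Figure D2:**
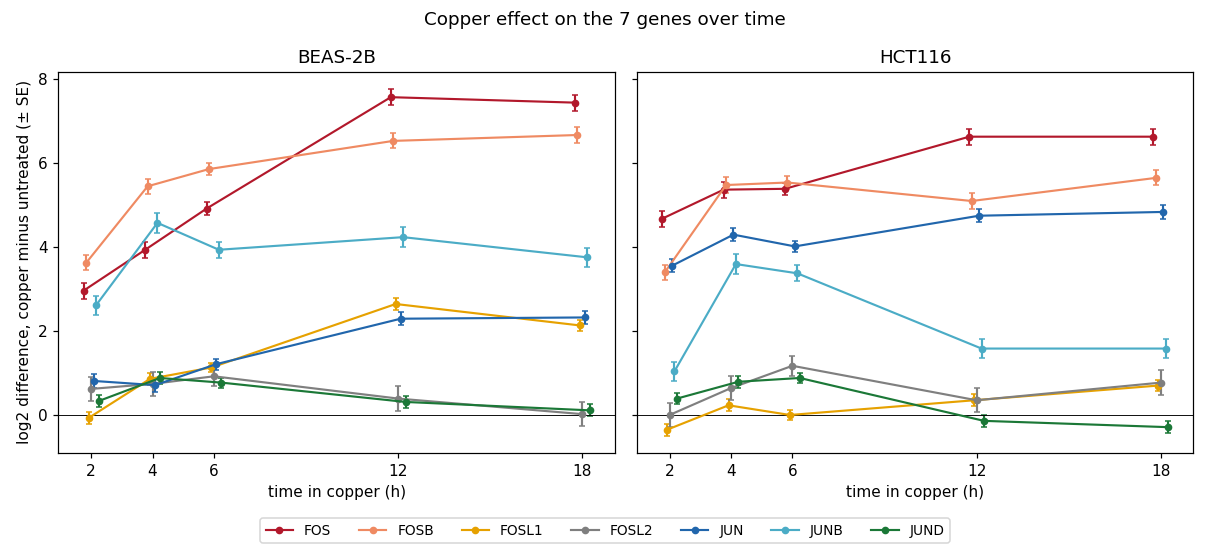
Copper minus time-matched untreated log2 value (vertical axis, ± SE from the model) against time in copper in h (horizontal axis), for the 7 genes in each line. FOS and FOSB lie highest at 18 h in both lines, JUN rises far more in HCT116 (4.84 at 18 h) than in BEAS-2B (2.33), and JUNB in HCT116 falls from 3.60 at 4 h to 1.59 at 12 h. FOS in BEAS-2B is drawn at its fitted value, with untreated arrays below detection.

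Counting genes at each time, 4, 6, 7, 5 and 5 of the 7 rose in BEAS-2B at 2, 4, 6, 12 and 18 h. Over all genes the shares that rose were 1.85%, 6.86%, 13.4%, 13.8% and 15.5%. In HCT116 the counts were 4, 5, 6, 5 and 6, beside 0.783%, 4.67%, 12.4%, 12.5% and 15.4% of all genes. The 4 genes up at 2 h were FOS, FOSB, JUN and JUNB in both lines. No member fell at any time in either line by limma's adjusted p, and the lowest value was that of FOSL1 at 2 h in HCT116 (-0.34, unadjusted p = 0.024). JUND in HCT116 was called lower at 18 h (-0.42, adjusted p = 0.03) and late (-0.28, adjusted p = 0.027) without the first 18 h copper array, and late with the robust prior (-0.20, adjusted p = 0.037). Over 2 and 4 h together (early), 7 genes rose in BEAS-2B against 7.92% of all genes, and 5 in HCT116 against 4.55%. The early call of FOSL2 in BEAS-2B (0.69, adjusted p = 0.03) was lost without any of 3 copper arrays, with adjusted p between 0.055 and 0.086. Over 12 and 18 h together (late), 5 rose in BEAS-2B against 18.2% of all genes and 6 in HCT116 against 17.8%. The late call of FOSL2 in HCT116 (0.57) was lost without either of 2 arrays, and that of FOSL1 (0.54) against the 0 h arrays (0.18, adjusted p = 0.15).

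Lasting and transient members were separated by the late minus early difference. FOS, FOSB, FOSL1 and JUN had a larger difference late than early in both lines, and JUND had a smaller one in both. Against matched untreated arrays JUNB split the lines, lasting in BEAS-2B and transient in HCT116. Against the 0 h arrays JUNB was smaller late than early in BEAS-2B as well (-0.47, adjusted p = 0.0068). A gene counted as late-rising where the late difference exceeded the early one, as transient where an early rise was followed by a significantly smaller late difference, and as lasting where both rises were called with no such drop. Over all genes the late and early differences were unequal for 33.4% in BEAS-2B and 33% in HCT116. The late difference was the larger for 12% and the smaller for 21.3% in BEAS-2B, and for 11.7% and 21.2% in HCT116.

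FOSB gained 2.06 ± 0.18 from early to late in BEAS-2B and 0.93 ± 0.18 in HCT116 (adjusted p = 0.00061). FOSL1 gained 1.99 ± 0.14 and 0.59 ± 0.14 (adjusted p = 0.0027), and JUN gained 1.55 ± 0.16 and 0.87 ± 0.16 (adjusted p = 0.00032). FOS gained 1.60 ± 0.19 in HCT116 (adjusted p = 3.1e-06). In BEAS-2B its gain was called as well (adjusted p = 3.1e-11), but with no untreated FOS signal its size is better read from the copper arrays, which rose by 3.73 ± 0.11. These 4 genes rose from early to late among the copper arrays themselves. In that comparison 18.1% of all genes rose and 30.1% fell in BEAS-2B, and 19.7% rose and 29% fell in HCT116. On copper arrays alone, which use no untreated array, FOSB rose by 1.71 in BEAS-2B cells and by 1.16 in HCT116 cells. FOSL1 rose by 0.87 and 0.24 in the same order, JUN rose by 0.80 and 0.49, and FOS in HCT116 rose by 1.28. The FOSL1 value in HCT116 was not called without any of 3 of the copper arrays, with values of 0.19 to 0.21. In HCT116 the copper-array gains of JUN, FOSB and FOSL1 lay largely between 2 and 4 h. Their means at 2 h were 11.46, 9.38 and 9.13. At 4, 12 and 18 h the means were 12.54, 12.47 and 12.50 for JUN and 11.54, 11.47 and 11.76 for FOSB. For FOSL1 they were 9.61, 9.66 and 9.57.

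JUND lost 0.81 ± 0.14 in HCT116 (adjusted p = 0.00022) and 0.40 ± 0.14 in BEAS-2B (adjusted p = 0.038). The BEAS-2B value was no longer called when any of 5 copper arrays was left out, with adjusted p between 0.051 and 0.086 and values from -0.40 to -0.33. On copper arrays alone JUND fell by 0.24 in BEAS-2B and by 0.28 in HCT116, calls lost without any of 4 arrays (-0.23 to -0.18) and without 1 array (-0.20), respectively. JUNB lost 0.74 ± 0.23 in HCT116 (adjusted p = 0.02). In BEAS-2B it changed by 0.40 ± 0.23, with a 95% interval of -0.09 to 0.89 (adjusted p = 0.22). Its copper arrays alone fell by 0.47 in BEAS-2B (adjusted p = 0.0068) and by 0.49 in HCT116 (adjusted p = 0.0049), so JUNB in BEAS-2B is lasting against matched untreated arrays and falls when copper arrays are compared with each other. Against matched untreated arrays FOSL2 met none of the definitions, at -0.47 (interval -1.09 to 0.14) in BEAS-2B and 0.24 (interval -0.37 to 0.86) in HCT116. On copper arrays alone FOSL2 was at -0.74 in BEAS-2B (adjusted p = 0.0013) and at 0.25 in HCT116 (adjusted p = 0.24). Its BEAS-2B value against the 0 h arrays was likewise -0.74 and called. Over all genes 30.1% fell on copper arrays alone in BEAS-2B and 29% in HCT116.

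**Figure D3:**
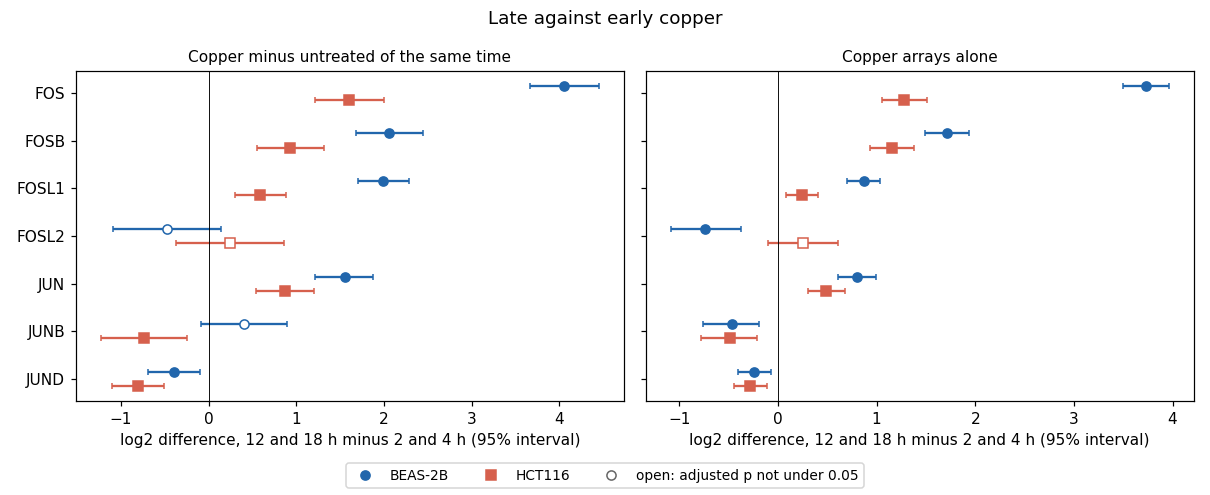
Log2 difference of 12 and 18 h minus 2 and 4 h (horizontal axis) for each gene (vertical axis), with 95% intervals from the model. The left panel uses the copper difference and the right panel the copper arrays alone, circles are BEAS-2B, squares are HCT116, and open symbols were not called. JUNB in BEAS-2B lies at 0.40 on the left and at -0.47 on the right.

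Steps between consecutive copper times compare copper arrays only. In HCT116 all 7 genes rose from 2 to 4 h, a step at which 9.31% of all genes changed. The largest of these rises were 2.35 ± 0.19 for JUNB and 2.16 ± 0.15 for FOSB. The FOSL1 rise was lost without either of 2 copper arrays (0.38, adjusted p = 0.13, and 0.46, adjusted p = 0.067), and so was that of FOSL2 (0.67, adjusted p = 0.24, and 0.75, adjusted p = 0.17). From 4 to 6 h JUN alone changed, falling by 0.54 ± 0.13 (5.44% of all genes changed). From 6 to 12 h JUNB fell by 1.79 ± 0.19, JUND fell by 0.58 and FOSB fell by 0.44 (adjusted p = 0.038), while FOS rose by 0.74 and JUN by 0.48 (24.6% of all genes changed). The FOSB fall was lost without any 1 of the 4 arrays of that step. The JUN fall from 4 to 6 h was lost without any of 3 arrays, and its later rise without either of 2. From 12 to 18 h no member was called by limma, nor at an unadjusted p under 0.05, where 11.1% of all genes changed. The values at that step ran from -0.15 for JUND to 0.32 for FOS (unadjusted interval 0.00 to 0.64, adjusted p = 0.2).

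In BEAS-2B the largest step was that of FOS after 6 h. From 2 to 4 h FOSB rose by 1.02, FOSL1 by 0.74 and FOS by 0.53 (6.08% of all genes changed), and the FOS call was lost without any 1 of the 4 arrays of that step. From 4 to 6 h FOS rose by 1.01 ± 0.15, where 0.94% of all genes changed. From 6 to 12 h FOS rose by 2.41 ± 0.15 (adjusted p = 3.7e-09), FOSB by 1.05 and JUN by 0.66, where 23.9% of all genes changed. From 12 to 18 h FOSL1 fell by 0.50 ± 0.11 (adjusted p = 0.013), where 6.61% of all genes changed, and this call was lost without either of 2 arrays (-0.46, adjusted p = 0.087, and -0.47, adjusted p = 0.069).

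Untreated culture moved some members as well. In BEAS-2B, FOS fell from 0 h to 2 to 6 h (adjusted p = 2.2e-10) and FOSL1 rose by 0.85 ± 0.10 (adjusted p = 0.00018), where 1.14% of all genes changed. From 0 h to 12 and 18 h FOS fell (adjusted p = 4.4e-10), JUN fell by 0.94 ± 0.13 (adjusted p = 0.00081) and JUNB fell by 1.00 ± 0.19 (adjusted p = 0.015), where 0.695% of all genes changed. The 12 h array behind the JUNB value did not detect it, and the call was lost with the authors' processed values (-0.39, adjusted p = 0.18) and without the first 0 h array (-0.70, adjusted p = 0.26). In HCT116 JUND rose by 0.60 ± 0.12 from 0 h to 12 and 18 h (adjusted p = 0.0026), where 10.1% of all genes changed. Its untreated values there were 12.08 and 12.01 at 0 h, 12.65 at 12 h and 12.64 at 18 h.

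Between the lines, JUN started lower in HCT116 and rose further. Untreated JUN was 8.90-fold lower in HCT116 than in BEAS-2B (log2 -3.15 ± 0.07, adjusted p = 7.4e-18). Its average copper difference was larger in HCT116 by 2.82 ± 0.10 (adjusted p = 4.4e-13), larger by 3.16 ± 0.16 early and by 2.48 ± 0.16 late. At 18 h the JUN copper arrays read 12.50 and 12.50 in HCT116 beside 12.74 and 12.90 in BEAS-2B. Untreated FOSL1 was 3.28-fold higher in HCT116 (1.72 ± 0.06) and JUNB 2.82-fold higher (1.49 ± 0.10), and both rose less with copper there. HCT116 minus BEAS-2B, their average copper differences were -1.15 ± 0.08 and -1.59 ± 0.14. Untreated FOSB was higher by 0.56 and FOSL2 was lower, at -0.72 in HCT116 minus BEAS-2B, and JUND differed by -0.08 (interval -0.21 to 0.05, adjusted p = 0.3). Over all genes 59.5% differed between untreated lines. Untreated FOS was also called higher in HCT116, but 6 of 8 BEAS-2B arrays did not detect it, and with the authors' processed values the difference was 0.11 (adjusted p = 0.13).

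The average copper difference was unequal between the lines for FOS, FOSB, FOSL1, JUN and JUNB, as for 26.4% of all genes. FOSB was at -0.60 ± 0.11 (HCT116 minus BEAS-2B, adjusted p = 0.00055), and FOSL2 (0.05, interval -0.33 to 0.43) and JUND (-0.15, interval -0.33 to 0.03) were not called. Against the 0 h arrays FOSB was at -0.37 and was not called (adjusted p = 0.14). The FOS difference was not called without the 2 h, 4 h or 6 h arrays (adjusted p = 0.86, 0.59 and 0.067). Against the 0 h arrays this FOS difference was called and larger, at 3.51 in place of 0.37. Its early value was then 4.67 in place of 1.57. Early, FOS and JUN were further up in HCT116 and JUNB further up in BEAS-2B (-1.27 ± 0.23), where 2.15% of all genes differed. Late, all but FOSL2 differed, where 29.5% of all genes differed. The late copper difference was larger in HCT116 for JUN and larger in BEAS-2B for the others, although that of JUND was called in neither line. The late values were -1.86 ± 0.14 for FOSL1, -2.41 ± 0.23 for JUNB, -1.23 ± 0.18 for FOSB and -0.42 ± 0.14 for JUND. JUNB was undetected on 2 untreated BEAS-2B arrays, and its late value was -1.17 with the authors' processed values and -1.11 against the 0 h arrays, both still called. Its average line difference was -0.67 and its untreated line difference 0.68 with the authors' values. The JUND value was lost without either of 2 arrays (-0.40 and -0.35) and was 0.30 (adjusted p = 0.12) against the 0 h arrays. The late FOS difference was not called with the authors' processed values (-0.34, adjusted p = 0.084) and turned to 2.22 (adjusted p = 6.7e-08) against the 0 h arrays. The late minus early difference itself was smaller in HCT116 for FOS, FOSB (-1.13 ± 0.26), FOSL1 (-1.40 ± 0.19) and JUNB (-1.14 ± 0.33), where 14% of all genes differed. That of JUNB was not called with the authors' processed values (-0.57, adjusted p = 0.08) or against the 0 h arrays (-0.02, adjusted p = 0.95). That of JUN was -0.68 and was not called (adjusted p = 0.052). It was called in 8 of 26 alternatives, among them the authors' processed values (-0.74, adjusted p = 0.009).

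On the array as a whole, the share of probes detected was lower late in copper. It was 41.4% to 43.2% on untreated BEAS-2B arrays and 36.2% to 37.9% on its copper arrays at 12 and 18 h. In HCT116 it was 39.6% to 42.4% and 32.2% to 35.6%. Its part in the late values was not tested. Of 9 colon markers, EPCAM, CDH1 and CDX2 were detected on all untreated HCT116 arrays and CDH17, VIL1 and CEACAM5 on none. EPCAM was also detected on all untreated BEAS-2B arrays, and the mesenchymal gene VIM on all untreated HCT116 arrays. Of 6 mesenchymal genes, 5 were detected on all untreated BEAS-2B arrays, whereas the airway basal markers KRT5, KRT14 and NGFR were detected on none. The fibroblast markers PDGFRB and THY1 and the leukocyte marker CD14 were on all of them, and DCN, LUM and CD3E on none.

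Other bZIP partners of FOS and JUN were described from a list of 12, of which 8 were tested. In BEAS-2B the average rose for 4 and fell for 1, with a median of 0.74. HCT116 had 3 up and 1 down, with a median of 0.01. Over all genes 18.5% rose and 30.3% fell in BEAS-2B, and 17.3% rose and 29.1% fell in HCT116. ATF3, a stress-induced factor that pairs with JUN proteins, rose by 4.30 ± 0.06 in BEAS-2B cells and by 3.49 ± 0.06 in HCT116 cells. The small MAF proteins MAFF and MAFG rose in both, MAFF by 3.22 and 2.95 and MAFG by 2.30 and 1.64. JDP2, which represses AP-1 sites, rose by 1.26 ± 0.16 in BEAS-2B and was at 0.01 in HCT116 (adjusted p = 0.97). BATF3 fell by 0.82 ± 0.18 in HCT116, where 8 of 10 copper arrays detected it, and was at 0.15 in BEAS-2B (adjusted p = 0.55). ATF3 gained 1.28 from early to late in BEAS-2B and lost 0.55 in HCT116 (adjusted p = 0.0082).

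Genes for the kinases and factors that act on FOS and JUN were also counted. Of 23 tested, 9 rose and 6 fell in BEAS-2B and 7 rose and 7 fell in HCT116, with a median of 0.05 in each. The falls were near or below the background of 30.3% and 29.1% of all genes, and the rises stood beside 18.5% and 17.3%. MAP2K3, a kinase that activates p38, rose by 1.41 ± 0.07 and 0.70 ± 0.07. ELK1, an SRF partner at the FOS promoter, fell by 0.98 ± 0.08 and 0.68 ± 0.08, whereas its relative ELK3 rose by 1.30 and 0.82. SRF itself rose by 0.66 ± 0.07 and 0.35 ± 0.07. MAP3K1, a kinase upstream of JNK, fell by 0.92 ± 0.14 in BEAS-2B and by 1.23 ± 0.14 in HCT116, where 9 of 10 copper arrays detected it. These are RNA levels, and the activity of the kinases was not measured.

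Reported AP-1 targets included some of the largest rises. Of 20 tested, 13 rose and 2 fell in BEAS-2B with a median of 1.48, and 9 rose and 2 fell in HCT116 with a median of 0.11. The shares over all genes were again 18.5% up and 30.3% down in BEAS-2B, and 17.3% up and 29.1% down in HCT116. These medians include targets detected on no array compared, namely CCL2, IL6 and MMP3 in HCT116 and MMP9 and SPP1 in BEAS-2B. The falls were those of CCL2 (-1.73, detected on 7 of 10 copper arrays) and PLAU (-0.69) in BEAS-2B, and of CCND1 (-0.41) and PLAU (-0.36) in HCT116. HMOX1, which degrades heme, rose by 6.88 ± 0.08 and 4.82 ± 0.08. CXCL8, a chemokine for neutrophils, rose by 5.01 ± 0.09 in BEAS-2B and by 4.32 ± 0.09 in HCT116, where 3 of 6 matched untreated arrays detected it. Among matrix metalloproteinases, MMP3 rose by 4.08 ± 0.11 in BEAS-2B, and MMP10 was at least 12.3-fold higher there, its probe being detected on 0 of 6 untreated and 8 of 10 copper arrays. In HCT116, where 0 of 6 untreated and 5 of 10 copper arrays detected it, MMP10 was at least 1.82-fold higher, and MMP3 was detected on no array of this comparison. HBEGF, a ligand of the EGF receptor, rose by 2.03 and 2.29, and PLAUR, the urokinase receptor, by 1.63 and 1.75. HMOX1 also answers to other factors, and which factor acted on these genes was not measured.

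**Figure D4:**
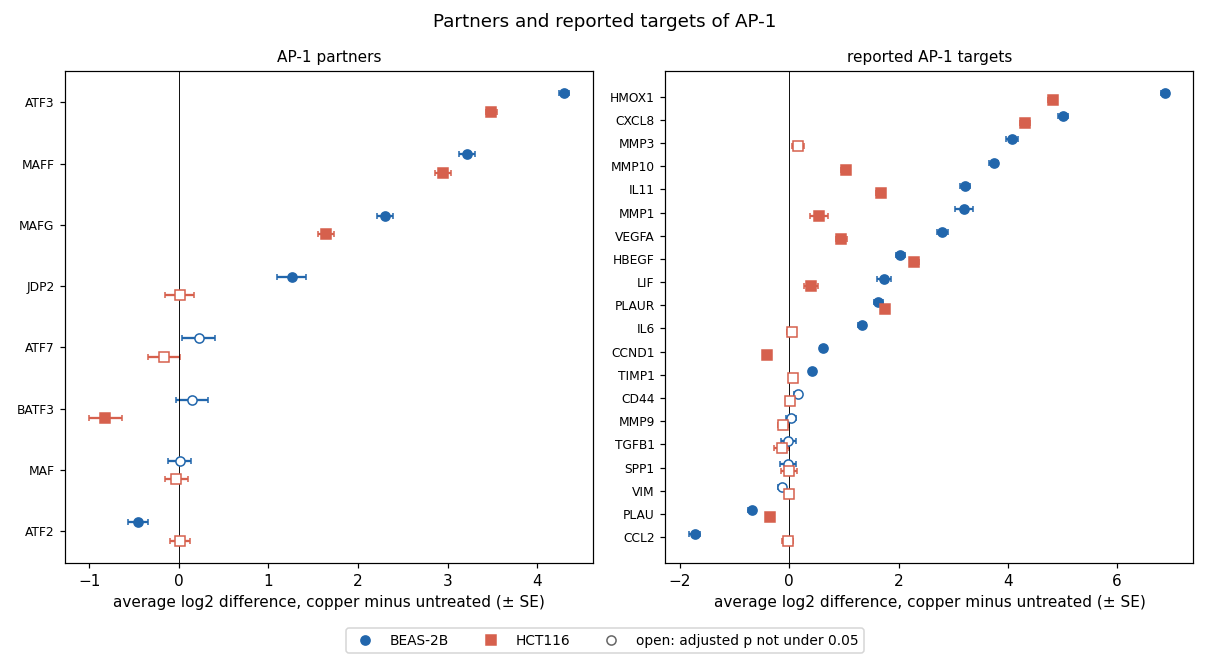
Average log2 difference of copper minus untreated (horizontal axis, ± SE from the model) for each listed gene tested (vertical axis). Circles are BEAS-2B, squares are HCT116 and open symbols were not called, and values of genes undetected on the untreated arrays, such as MMP10 in BEAS-2B, are fitted values rather than bounds. ATF3, MAFF, HMOX1 and CXCL8 lie far to the right in both lines.

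Genes for turnover of FOS and JUN RNA or protein were the last list. Of 14 tested, 3 rose and 8 fell in BEAS-2B with a median of -0.35, and 3 rose and 5 fell in HCT116 with a median of -0.12. The HCT116 counts are near the all-gene shares of 17.3% up and 29.1% down, and those of BEAS-2B stood beside 18.5% up and 30.3% down. ZFP36, which binds AU-rich elements and speeds decay of such RNAs, rose by 1.43 ± 0.07 and 1.22 ± 0.07. From early to late it lost 0.69 in BEAS-2B (adjusted p = 0.0023) and 1.07 in HCT116 (adjusted p = 4.2e-05). Its relative ZFP36L1 rose by 1.26 in BEAS-2B and was at 0.02 in HCT116 (adjusted p = 0.89). ZFP36L2 fell by 0.82 ± 0.14 in BEAS-2B and by 1.13 ± 0.14 in HCT116, where 6 of 10 copper arrays detected it. FBXW7, which directs JUN protein to degradation, rose by 1.30 and 0.55. PARN, a deadenylase, fell by 0.67 in BEAS-2B and was at -0.07 in HCT116 (adjusted p = 0.48). ITCH, a ubiquitin ligase for JUN, fell by 0.42 ± 0.12 in BEAS-2B and by 0.46 ± 0.12 in HCT116, where 8 of 10 copper arrays detected it.

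The genes most like each member were ranked by Pearson's r over the 10 copper differences, 5 times in each of 2 lines. These points share the normalization and the lines, so r is a description. It ignores the size and sign of the average, so a gene alike in pattern need not have risen. For FOS they were the small nucleolar RNA SNORD14D (0.973), ISCA1 (0.969), which serves iron-sulfur assembly, and ODF4 (0.967), detected on 7 of 16 untreated and 7 of 20 copper arrays. For FOSB they were the small heat shock protein HSPB8 (0.981), the endoribonuclease ZC3H12A (0.977) and NRIP3 (0.963). For FOSL1 they were ST3GAL1 (0.986), AZIN1 (0.975) and the collagenase MMP1 (0.973), detected on 7 of 16 untreated and 13 of 20 copper arrays. JUN was followed by BTN2A1 (0.961), SNORD80 (0.960) and the pseudogene PMS2P4 (0.947). JUNB was followed by the cell cycle inhibitor CDKN1A (0.934), the ERK phosphatase DUSP5 (0.927) and the histone demethylase KDM7A (0.925), detected on 3 of 16 untreated and 14 of 20 copper arrays. JUND was followed by SOWAHC (0.986), ITPRIP (0.964) and the bZIP gene CEBPG (0.955). FOSL2 was followed by NECTIN2 (0.922), CTSA (0.902) and LSM11 (0.881), detected on 4 of 16 untreated and 4 of 20 copper arrays. Average copper differences were -0.44 in BEAS-2B and 0.56 in HCT116 for SNORD80, and -0.45 and 0.11 for PMS2P4. They were -0.17 and -0.07 for ODF4 and -0.12 and 0.02 for LSM11. The other genes named here had positive averages in both lines, those of ISCA1 being 0.41 and 0.42.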

How the data were processed

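Per the labels' protocols, total RNA was extracted with a QIAGEN RNeasy kit and hybridised as biotin-labelled cRNA, and the submitters' processing notes name BeadStudio. The authors deposited a log2 signal for each probe and array, which per the file headers should be non-normalized, with a detection p-value beside it. The log2 scale was read from the values (5.89 to 14.49), and array means of 7.31 to 7.33 leave unknown whether the authors had scaled the arrays. A second deposited table of processed log2 values differed by at most 0.202 and was an alternative. Depth is not defined for arrays, whose number limits the precision.

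Signals were background-corrected from the detection p-values and quantile-normalized with neqc (offset 16) of limma 3.58.1 in R 4.3.3. Of 43960 probes, 13 with missing values were left out. Named probes detected at p below 0.01 on 2 or more arrays were kept, and a gene took its probe with the highest mean. Gene names came from the array annotation, in which 29511 probes had 1 symbol and 0 had several. They were checked by Entrez Gene identifier against RefSeq GRCh38.p14. One limma model held 22 groups, with 14 residual and 3.44 prior degrees of freedom, and groups with 1 array were assumed to vary like those with 2. The script was tested on simulated data. Alternatives changed the background correction, offset, filter, probe rule, prior, reference, line, replicate block and arrays used, and that with 0 h as the reference was added after the data were seen.

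All 7 members were named. Beside them, the 4 genes with the smallest adjusted p of the average copper difference were named from each list and line, and the 3 genes most alike for each member. Reported targets that fell or that no compared array detected were named as well. The members and lists were chosen with earlier results of these data known. Replicate numbers did not pair the arrays: the replicate differences of 21 group pairs correlated with a median r of 0.0018 for BEAS-2B, and of -0.00054 for HCT116, and no pair exceeded 0.1.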

Additional observations from a re-analysis of the deposited data

Results flagged for a closer look

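The copper difference of 5 genes was unequal between the lines by the test of that difference, given here as HCT116 minus BEAS-2B on the log2 scale with limma's adjusted p. The averages over 5 times differed for FOS (0.37, adjusted p = 0.02), FOSB (-0.6, adjusted p = 0.00055), FOSL1 (-1.15, adjusted p = 1.1e-08), JUN (2.82, adjusted p = 4.4e-13) and JUNB (-1.59, adjusted p = 1.6e-07). The late minus early values differed for FOS (-2.45, adjusted p = 5.9e-06), FOSB (-1.13, adjusted p = 0.0065), FOSL1 (-1.4, adjusted p = 9.4e-05) and JUNB (-1.14, adjusted p = 0.028). Both FOS values are fitted sizes that rest on BEAS-2B untreated arrays where FOS was not detected. Against the 0 h arrays the average difference was 3.51 for FOS, and for FOSB it was -0.37 and not called (adjusted p = 0.14). Line and copper dose cannot be told apart in any of these values.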

How the results depend on the processing

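Of 471 alternative values of the counts of members called, 445 stayed within 1.5 times the main count and 26 did not. Of 4137 alternative values of single members, 3924 kept direction and call, 94 lost the call, 67 gained it and 52 changed sign. Fold changes of genes near background are smaller with the authors' processed values, where the BEAS-2B average was 3.61 for FOS, 4.27 for FOSB and 2.38 for JUNB, all still called. The strict filter moved the median of all genes at late times to -0.20 in BEAS-2B and -0.16 in HCT116.

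With the authors' processed values and likewise with no background correction, JUNB late minus early in BEAS-2B was -0.04, the average line difference of FOSL2 was -0.04 and the early line difference of FOSB was 0.02. Both gave 2 members changed from 4 to 6 h in each line, 5 from 6 to 12 h in BEAS-2B and 2 in untreated HCT116 at 12 and 18 h. With offset 50 the BEAS-2B counts were 2 and 6, the untreated HCT116 count was 2 and the FOSL2 line difference was -0.01. The strict filter and the robust prior each gave 2 members from 4 to 6 h in BEAS-2B and 2 in untreated HCT116. With each line fitted alone, 0 members were called from 4 to 6 h in HCT116. The cause was not tested.

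Replicate numbers share only a number. With the replicate block FOSL2 at 18 h in BEAS-2B was -0.01, the early line difference of JUND was 0.01 and JUND late minus early in BEAS-2B was -0.40 (adjusted p = 0.051). The block also ended the calls of FOSL2 early in BEAS-2B (0.65, adjusted p = 0.058), JUNB at 2 h in HCT116 (1.05, adjusted p = 0.07), FOSL1 at 12 h in HCT116 (0.35, adjusted p = 0.066), FOS from 2 to 4 h in BEAS-2B (0.53, adjusted p = 0.066), FOSB from 6 to 12 h in HCT116 (-0.44, adjusted p = 0.051) and the late line difference of JUND (-0.40, adjusted p = 0.067).

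Against the mean of all untreated times, 7 members rose at 2 h in BEAS-2B and 5 early line differences were called. FOSL1 at 2 h in BEAS-2B was 0.53, JUNB late minus early in BEAS-2B -0.47, FOSL2 at 2 h in HCT116 -0.09 and FOSL1 early in HCT116 0.01. JUND in HCT116 was 0.22 at 12 h, 0.07 at 18 h and 0.15 late. Against 0 h, FOSL1 at 2 h in BEAS-2B was 0.86, FOSL2 at 18 h in BEAS-2B -0.07, JUNB late minus early in BEAS-2B -0.47, and JUND in HCT116 0.47 at 12 h, 0.32 at 18 h and 0.39 late, these 3 and the FOSL1 value being called. The line differences against 0 h were 0.44 (average), 0.34 (early) and 0.30 (late) for JUND and 2.22 (late) for FOS. Without the 18 h arrays the FOSL2 average line difference was -0.13.

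Leaving out 1 array at a time, the members changed in BEAS-2B from 12 to 18 h numbered 0 to 1, those in HCT116 0 to 1 from 4 to 6 h, 3 to 4 from 6 to 12 h and 0 to 1 from 12 to 18 h. Values that changed sign in BEAS-2B ran from -0.39 to 0.44 for FOSL2 at 18 h, -0.13 to 0.01 for FOSL1 at 2 h, -0.16 to 0.11 (FOSL2) and -0.52 to 0.08 (JUNB) for untreated 2 to 6 h. For steps they ran from -0.16 to 0.09 (JUND, 2 to 4 h), -0.10 to 0.02 (JUN, 2 to 4 h), -0.01 to 0.08 (JUND, 6 to 12 h), -0.61 to 0.22 (FOSL2, 12 to 18 h) and -0.08 to 0.00 (FOSB, 12 to 18 h). In HCT116 they ran from -0.21 to 0.23 (FOSL2, 2 h), -0.04 to 0.06 (FOSL1, 6 h), -0.26 to 0.00 (FOS, 4 to 6 h) and -0.16 to 0.05 (FOSL1, 6 to 12 h). From 12 to 18 h they ran from -0.07 to 0.13 (JUN), -0.20 to 0.01 (FOSL1), -0.04 to 0.06 (FOSL2) and -0.24 to 0.14 (JUNB). The line differences ran from -0.03 to 0.13 (FOSL2, average) and -0.08 to 0.05 (JUND, early).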
